A study of Mus musculus with 12 samples.

Results

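The genes described are 46 genes of DNA replication and nucleotide supply, of the 20661 genes in the files. They were taken by name, not by a measured value, though with earlier results of these data known. All 46 were found in each of the 12 libraries' count tables. They comprise 12 genes of origin licensing, 5 partners of the replicative helicase, 6 genes of the sliding clamp and its loader, 9 polymerase and primase subunits, 5 genes of lagging strand processing and single-strand binding, 5 enzymes of nucleotide supply and 4 genes of chromatin assembly and DNA methylation. Mcm10, a factor of helicase activation, is counted here with the licensing genes. RNA and ribosome footprints of these genes were counted in mouse embryonic fibroblasts (MEFs), cultured cells grown from mouse embryos. WT-shSCR MEFs are wildtype cells carrying a scrambled short hairpin RNA. WT-shARF MEFs are wildtype cells carrying a hairpin directed at ARF, a tumor suppressor encoded by Cdkn2a that stabilizes p53. Arf-/--shSCR MEFs carry the scrambled hairpin and lack exon 1β of Cdkn2a in every cell, a deletion that leaves INK4A, the other product of the gene. All 3 groups were labelled passage 4, and all carried a lentiviral hairpin and had been selected with puromycin. For the wildtype cells, C57BL/6J is the labelled strain and B6129SF2/J the strain in the study's methods, while the knockout cells came from B6.129X1-Cdkn2atm1Cjs/KaiJ mice, so strain and genotype cannot be told apart. Each group had 2 replicates in each assay. Neither labels nor methods say whether these were separate cultures or embryos, so p-values measure only the spread between these samples, which may be technical.

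Before S phase, the origin recognition complex, Cdc6 and Cdt1 load the MCM2-7 helicase onto DNA, which licenses each origin to fire once. When Cdc45 and GINS join the helicase, the fork opens, primase and the polymerases copy the strands, PCNA holds the polymerases on DNA, and RPA covers the exposed single strand. Many of these genes are known targets of the E2F transcription factors, which RB family proteins hold back until cyclin-dependent kinases act on them, and the kinase inhibitor p21, encoded by the p53 target Cdkn1a, slows that step.

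The letters that E2F factors bind are shown here because most of the genes below are textbook E2F targets. The RefSeq promoter table (GRCm38.p6, 250 bases before to 50 bases after the first listed start of a gene) held 38 of the 46 genes, and both strands were searched for TTTCCCGC, TTTGGCGC, TTTCGCGC and TTTGCCGC. These letters stood in 13 of the 38 promoters (34.2%), against 4.26% of the 8690 promoters of genes tested below and 2.32% of all 27025 promoters. The 19 matches lay between 165 bases upstream and 39 bases downstream of the start. The capitals mark the motif, and GCGGGAAA, GCGCCAAA and GCGCGAAA are motifs read on the opposite strand.
Mcm5: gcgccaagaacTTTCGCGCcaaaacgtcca
Mcm7: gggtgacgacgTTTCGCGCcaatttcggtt
Cdt1: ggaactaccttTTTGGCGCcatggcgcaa
Rfc3: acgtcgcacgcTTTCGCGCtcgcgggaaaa
Pola1: gtcatcacaggGCGCCAAAtgcactcccgc
Pole2: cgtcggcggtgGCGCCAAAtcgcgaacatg
Cdc6: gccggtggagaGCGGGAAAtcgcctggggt
Orc1: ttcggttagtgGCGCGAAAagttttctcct
Coordinates are those of the printed stretch, and distances run from the motif to the listed start. In this list, the Mcm5 site (chr8:75109345-75109374, plus strand) begins 153 bases upstream of the start, and it overlaps a TTTGGCGC on the other strand by 4 bases. In addition, the Mcm7 site (chr5:138171849-138171878, minus strand) begins 16 bases downstream of the start, and the Cdt1 site (chr8:122568036-122568064, plus strand) begins 32 bases downstream of the start, within the transcribed part of the gene. Also, the Rfc3 site (chr5:151651200-151651229, minus strand) begins 10 bases upstream of the start, where a second motif, GCGGGAAA, follows. Further, the Pola1 site (chrX:93632275-93632304, minus strand) begins 138 bases upstream of the start, while the Pole2 site (chr12:69228162-69228191, minus strand) begins 10 bases downstream of the start. Finally, the Cdc6 site (chr11:98908002-98908031, plus strand) begins 138 bases upstream of the start, and the Orc1 site (chr4:108579416-108579445, plus strand) begins 27 bases upstream of the start. The first 6 sequences belong to genes that passed the test in RNA or footprints after knockout, and Cdc6 and Orc1 did not. The motif stood in 9 of the 27 promoters of genes that passed in either assay (33.3%) and in 4 of the 11 promoters of genes that passed in neither (36.4%). The other motifs searched can share bases with it, as CCAAT does by its first base in the Mcm7 sequence. CCAAT, which NF-Y binds, stood in 24 of the 38 promoters (63.2%) against 38.9% of genes tested and 37.9% of all promoters. GGGCGG, the GC box, stood in 28 (73.7%) against 66.8% and 35.9%, and TTTGAA, the core of the cell cycle homology region, in 5 (13.2%) against 11.5% and 18.1%. A match is a run of letters, and no binding was measured.

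Levels are given as CPM, read counts normalised to the reads on genes with edgeR's TMM factors over the 6 libraries of an assay. RNAseq libraries held 1578627 to 3989908 reads on genes and ribosome profiling libraries 2544319 to 5157572, and the 46 genes had between 3 and 3939 reads in a library, with Gins1 and Gins3 the only ones under 10. Cdkn2a RNA was at 44.8 and 41.4 CPM in WT-shSCR and 27.7 and 32.4 CPM in Arf-/--shSCR MEFs, while the libraries labelled WT-shARF were at 638 and 678 CPM, which goes against their label. Reads on Cdkn2a pool the ARF and INK4A products, so they do not check the loss of ARF in either group. The study shows an immunoblot of ARF knockdown and knockout in MEFs, and states that the hairpin leaves INK4A expression unaffected. Every direction given for WT-shARF rests on the label. The 10 fibroblast markers summed to 21350 to 24470 CPM of RNA in WT-shSCR, 22080 to 22450 CPM in WT-shARF and 16350 to 17460 CPM in Arf-/--shSCR MEFs, with none at 0. Fn1 weighed most in the lower knockout sum, at 7175 and 9956 CPM in WT-shSCR and 3153 and 3006 CPM in Arf-/--shSCR MEFs. Of the 9 markers tested in RNA after knockout, 4 had a fold change above 0 and 5 below. Past the test, 2 were higher and 1 lower, against 3.94% and 3.99% of all genes tested. Macrophage markers moved with the groups: all 10 were below control in RNA after knockout, 9 of them past the test, and their sum was 640.4 to 648.8 CPM in WT-shSCR, 228.4 to 289.8 CPM in WT-shARF and 41.1 to 70.5 CPM in Arf-/--shSCR MEFs, where Fcgr1 had 0 reads in replicate 2. The 8 mesothelial or epithelial markers summed to 91.9 to 93.7 CPM, 56.3 to 70.1 CPM and 158.7 to 182.1 CPM in the same order, with 4 of the 6 tested higher after knockout. Endothelial markers summed to 24.6 to 36.2 CPM and neural markers to 98.9 to 139.7 CPM over the RNAseq libraries. The 4 muscle markers summed were lowest in WT-shARF (2403 to 2849 CPM of RNA against 3959 to 5256 CPM elsewhere). Most of that RNA was Ttn, at 2356 to 2804 CPM for WT-shARF and 3849 to 5150 CPM elsewhere. Ttn footprints were only at 6.8 to 31.4 CPM, and Myod1 and Myog RNA at 0 to 7.4 CPM. Footprints of the 4 muscle markers summed to 66.1 to 68.0 CPM for WT-shARF and 100.6 to 116.8 CPM elsewhere. The part of other cell types in the results below was not tested. In bulk samples, fewer cells of a type and less RNA per cell cannot be told apart.

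The 46 genes took a larger share of all gene reads in both other groups than in WT-shSCR. Their share of RNAseq reads was 0.362% and 0.360% in WT-shSCR, 0.542% and 0.526% in WT-shARF and 0.582% and 0.529% in Arf-/--shSCR MEFs. Of footprint reads it was 0.359% and 0.378%, 0.522% and 0.512%, and 0.582% and 0.572% in turn. Neither group overlapped WT-shSCR in either assay, and the exact permutation test of 2 against 2 libraries cannot go below p = 0.33.

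**Figure D1:**
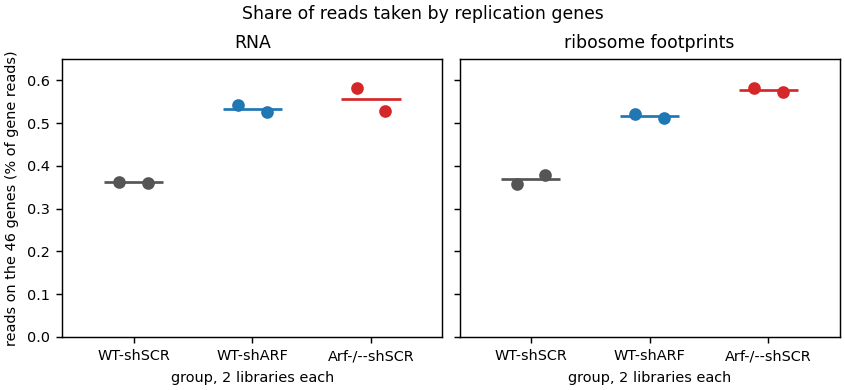
Reads on the 46 genes as a percentage of reads on all genes, for RNA (left) and footprints (right). Points are libraries and lines group means, and the WT-shSCR libraries (0.359% to 0.378%) lie below all libraries of the other groups (0.512% to 0.582%).

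After knockout of Arf, RNA of 16 of the 46 genes was higher and of 0 lower, each gene tested with edgeR's quasi-likelihood F test and Benjamini-Hochberg adjustment over all genes tested, at a threshold of 0.05. Of all genes tested, 3.94% were higher and 3.99% lower. In footprints 27 of the 46 were higher and 0 lower, against 9.57% and 8.95% of all genes. At an unadjusted p under 0.05, 0 were lower in RNA and 0 in footprints, and DESeq2 called 0 lower. Single values given for a gene below are log2 fold changes against WT-shSCR unless another unit is named. The median log2 fold change of the 46 genes was 0.57 in RNA and 0.65 in footprints, while that of all genes tested was -0.0038 and -0.0009. The fold change was above 0 for 44 genes in RNA and for all 46 in footprints, against 49.6% and 49.9% of all genes. Both knockout libraries lay above both WT-shSCR libraries for 38 of the 46 genes in RNA (26.3% of all genes) and for 42 in footprints (30.6%). The 13 genes past the test in both assays were Mcm2, Mcm3, Mcm5, Mcm7, Cdt1, Orc6, Pola1, Pole, Rrm1, Rrm2, Tk1, Dnmt1 and Uhrf1. Rfc5, Pole2 and Chaf1a passed in RNA only, 14 genes in footprints only, and 16 in neither. The footprint count fell to 0 without either WT-shSCR replicate, when 0 of all genes were called higher, although 44 and 45 of the 46 genes stayed above 0. The RNA count was 2 and 1 without WT-shSCR replicate 1 and 2, 10 without Arf-/--shSCR replicate 2 and 8 with DESeq2.

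For the libraries labelled WT-shARF, 9 of these genes were higher and 0 lower in RNA, against 3.11% and 4.17% of all genes tested, and 19 were higher and 0 lower in footprints, against 5.63% and 5.5%. At an unadjusted p under 0.05, 0 were lower in RNA and 0 in footprints, and DESeq2 called 0 lower. The median log2 fold change was 0.43 in RNA and 0.49 in footprints, and -0.0012 and -0.0028 over all genes. It was above 0 for 43 and 44 of the genes. Both WT-shARF libraries lay above both WT-shSCR libraries for 33 genes in RNA (25.6% of all genes) and for 38 in footprints (26.4%). Mcm2, Mcm3, Mcm5, Mcm7, Rrm1, Rrm2, Dut and Uhrf1 passed in both assays, Mcm4 in RNA only, 11 genes in footprints only and 26 in neither. The WT-shSCR libraries are shared with the knockout comparison, so the values of these comparisons are given side by side and are not independent. The footprint count was 9 without WT-shARF replicate 1, 11 without WT-shARF replicate 2 and 11 with DESeq2, and the RNA count was 2 and 4 without those replicates and 4 with DESeq2.

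**Figure D2:**
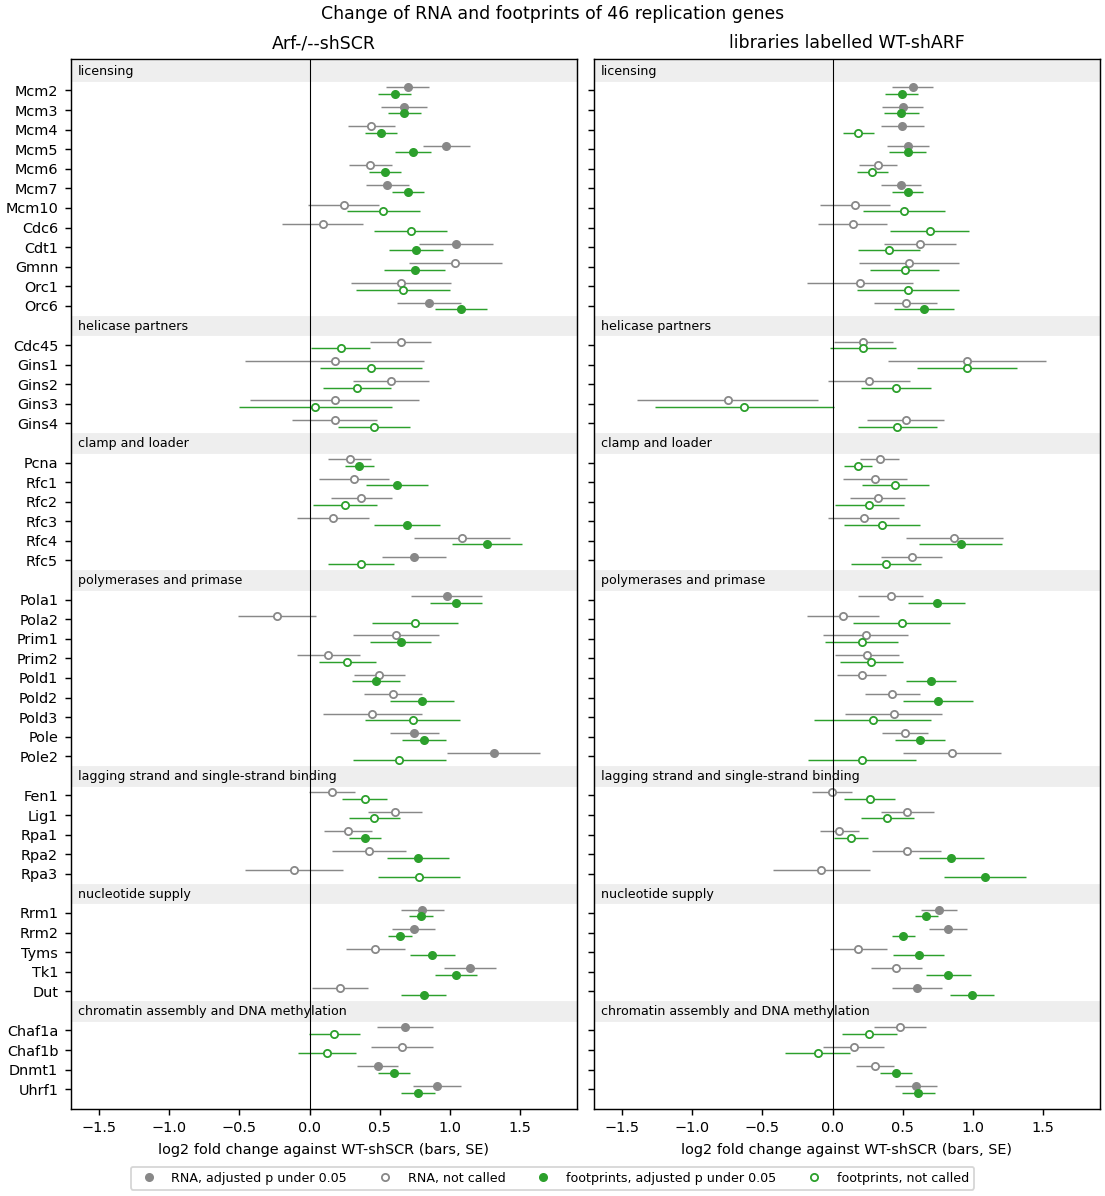
Log2 fold change of RNA (grey) and footprints (green) of each of the 46 genes against WT-shSCR, ordered by role, for Arf-/--shSCR MEFs (left) and the libraries labelled WT-shARF (right). Filled points have an edgeR adjusted p under 0.05 and bars are standard errors. All filled points lie to the right of 0.

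The counts by role below stand against the same shares of all genes tested. These were 3.94% higher in RNA and 9.57% in footprints after knockout, and 3.11% and 5.63% in WT-shARF. A role holds only 4 to 12 genes, and differences between roles were not tested. Of the origin licensing genes, 6 of 12 genes were higher in RNA and 9 in footprints after knockout, with median log2 fold changes of 0.66 and 0.69, and 5 and 5 in WT-shARF, with medians of 0.50 and 0.51. MCM2 to MCM7 form the hexameric helicase that is loaded at origins. Mcm2 RNA was at 168 and 154 CPM in WT-shSCR, 263 and 222 CPM in WT-shARF and 262 and 266 CPM in Arf-/--shSCR MEFs. Mcm2 footprints were at 147 and 138 CPM, 208 and 196 CPM, and 227 and 217 CPM in that order. In each assay both libraries of either other group lay above both WT-shSCR libraries, and RNA and footprints passed the test in both comparisons. Mcm3 RNA was at 169 and 143 CPM in WT-shSCR, 229 and 219 CPM in WT-shARF and 273 and 230.1 CPM in Arf-/--shSCR MEFs. Mcm3 footprints were at 154 and 146 CPM, 181 and 241 CPM, and 233 and 257 CPM in that order. Its pattern was the same, with log2 fold changes from 0.49 (WT-shARF footprints) to 0.67 (knockout footprints), all past the test. Mcm5 RNA was at 195 and 139.6 CPM in WT-shSCR, 249 and 246 CPM in WT-shARF and 316 and 351 CPM in Arf-/--shSCR MEFs. Mcm5 footprints were at 121 and 104 CPM, 172 and 157 CPM, and 185 and 199 CPM in that order. Mcm5 (GENCODE M21, GRCm38, chromosome 8, 75109569 to 75128439, plus strand) had the widest change of the subunits in RNA after knockout, 0.97 log2 units (SE 0.17, adjusted p = 0.000945, edgeR), and the 3 groups did not overlap in either assay. Mcm7 RNA was at 184 and 205 CPM in WT-shSCR, 295 and 256 CPM in WT-shARF and 289.7 and 286 CPM in Arf-/--shSCR MEFs. Mcm7 footprints were at 159 and 156 CPM, 228 and 232 CPM, and 256 and 269 CPM in that order. Mcm7 rose in footprints by 0.70 log2 units (SE 0.11, adjusted p = 2.79e-05, edgeR) after knockout and by 0.53 log2 units (SE 0.11, adjusted p = 0.00119, edgeR) in WT-shARF, and passed in RNA too.

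Mcm4 and Mcm6 passed fewer tests. Mcm4 RNA was at 115 and 117 CPM in WT-shSCR, 164 and 167 CPM in WT-shARF and 163 and 154 CPM in Arf-/--shSCR MEFs. Mcm4 footprints were at 183 and 187 CPM, 199 and 224 CPM, and 259 and 279 CPM in that order. Mcm4 RNA had a log2 fold change of 0.44 after knockout, which did not pass (adjusted p = 0.118, edgeR), and of 0.50 in WT-shARF, which passed (adjusted p = 0.0416, edgeR), while its footprints passed after knockout (0.51) and did not in WT-shARF (0.18). Mcm6 RNA was at 229 and 214 CPM in WT-shSCR, 284 and 278 CPM in WT-shARF and 327 and 277 CPM in Arf-/--shSCR MEFs. Mcm6 footprints were at 182 and 182 CPM, 229 and 217 CPM, and 264 and 276 CPM in that order. The Mcm6 libraries of both other groups lay above control in each assay, and the footprint change after knockout passed, 0.54 log2 units (SE 0.11, adjusted p = 0.000611, edgeR), while RNA after knockout (0.43) and footprints in WT-shARF (0.28) did not.

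Loading of the hexamer needs Cdt1, which brings it to the origin, and the ATPase Cdc6, while geminin (Gmnn) binds and blocks Cdt1. Cdt1 RNA was at 26.4 and 21.03 CPM in WT-shSCR, 32.9 and 41.1 CPM in WT-shARF and 41.9 and 58.4 CPM in Arf-/--shSCR MEFs. Cdt1 footprints were at 32.8 and 34.9 CPM, 42.3 and 47.2 CPM, and 59.9 and 57.1 CPM in that order. Cdt1 (chromosome 8, 122568015 to 122573554, plus strand) was higher after knockout in RNA by 1.04 log2 units (SE 0.26, adjusted p = 0.0182, edgeR) and in footprints by 0.76 log2 units (SE 0.19, adjusted p = 0.0044, edgeR), and did not pass in WT-shARF. Gmnn RNA was at 14.3 and 10.8 CPM in WT-shSCR, 17.5 and 19.96 CPM in WT-shARF and 28.4 and 24.6 CPM in Arf-/--shSCR MEFs. Gmnn footprints were at 25.6 and 27.1 CPM, 36.2 and 39.3 CPM, and 41.6 and 49.03 CPM in that order. The inhibitor thus stood higher in the same libraries as its target, with knockout log2 fold changes of 1.04 in RNA (adjusted p = 0.0633, edgeR) and 0.75 in footprints (adjusted p = 0.0138, edgeR). Cdc6 RNA was at 29.4 and 33.1 CPM in WT-shSCR, 29.2 and 38.98 CPM in WT-shARF and 42.2 and 24.2 CPM in Arf-/--shSCR MEFs. Cdc6 footprints were at 19.5 and 18.97 CPM, 34.8 and 28.1 CPM, and 37.3 and 27.6 CPM in that order. Cdc6 RNA overlapped between groups, and its footprints lay above control in both other groups without passing (0.72 after knockout, adjusted p = 0.0535, edgeR). Orc6 RNA was at 32.03 and 33.1 CPM in WT-shSCR, 43.5 and 50.1 CPM in WT-shARF and 64.1 and 54.1 CPM in Arf-/--shSCR MEFs. Orc6 footprints were at 41.2 and 31.8 CPM, 49.8 and 65.3 CPM, and 87.1 and 71.3 CPM in that order. Orc6, the smallest subunit of the origin recognition complex, rose in footprints by 1.08 log2 units (SE 0.19, adjusted p = 6.38e-05, edgeR) after knockout and by 0.65 log2 units (SE 0.21, adjusted p = 0.0435, edgeR) in WT-shARF. Mcm10, a factor of helicase activation, and Orc1, the largest subunit of the origin recognition complex, passed in no comparison.

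**Figure D3:**
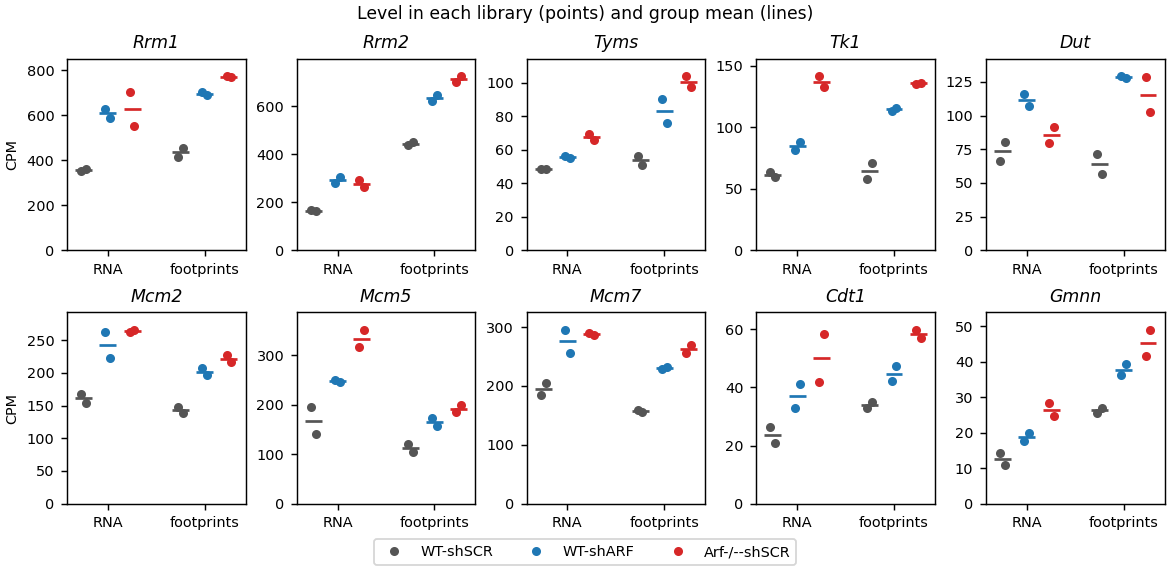
CPM of RNA and footprints of the 5 nucleotide supply genes (top) and 5 licensing genes (bottom) in each library, with group means as lines. All panels start at 0, and in all 20 gene and assay combinations except Dut RNA both Arf-/--shSCR libraries lie above both WT-shSCR libraries.

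Of the helicase partners, Cdc45 and the 4 GINS subunits, 0 passed the test in RNA or footprints in either comparison with WT-shSCR (edgeR). At an unadjusted p under 0.05 there were 2 in RNA and 0 in footprints after knockout, and 0 and 1 in WT-shARF. Over all genes tested there were 2378 of 10659, 3217 of 10737, 2215 of 10503 and 2420 of 10307 in that order. DESeq2 called 0 of these helicase partners. The median log2 fold changes were 0.18 and 0.33 after knockout and 0.26 and 0.45 in WT-shARF. Gins1 and Gins3, at 7 to 102 and 3 to 44 reads in a library, had the widest standard errors of the 46 genes in RNA, so changes of the size seen in the MCM genes were not detectable for them at this depth.

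Among the clamp and its loader, 1 of 6 genes was higher in RNA and 4 in footprints after knockout, with median log2 fold changes of 0.34 and 0.49, and 0 and 1 in WT-shARF, with medians of 0.33 and 0.37. PCNA is the ring that tethers the polymerases, and RFC1 to RFC5 load it. Pcna RNA was at 192 and 179.7 CPM in WT-shSCR, 232 and 244 CPM in WT-shARF and 242 and 216 CPM in Arf-/--shSCR MEFs. Pcna footprints were at 263 and 289.7 CPM, 318 and 312 CPM, and 346 and 377 CPM in that order. Pcna lay above control in both other groups in each assay, but the changes were small: 0.28 in RNA, which did not pass, and 0.35 log2 units (SE 0.10, adjusted p = 0.0136, edgeR) in footprints after knockout. In WT-shARF its footprint change of 0.18 did not pass. The annotation names 2 pseudogenes after Pcna and 1 after Tyms, with which reads may be shared. Rfc4 RNA was at 10.6 and 14.7 CPM in WT-shSCR, 19.6 and 25.2 CPM in WT-shARF and 23.3 and 29.8 CPM in Arf-/--shSCR MEFs. Rfc4 footprints were at 15.3 and 17.8 CPM, 33.4 and 29.3 CPM, and 38.5 and 42.7 CPM in that order. Rfc4 (chromosome 16, 23113943 to 23127737, minus strand) had the largest footprint change of the 46 genes after knockout, 1.26 log2 units (SE 0.25, adjusted p = 0.000329, edgeR), with an RNA log2 fold change of 1.08 that missed the threshold (adjusted p = 0.0605, edgeR), and both other groups lay above WT-shSCR in each assay. Rfc1 and Rfc3 passed in footprints after knockout with log2 fold changes of 0.62 and 0.69, Rfc5 passed in RNA with 0.74, and Rfc2 passed in neither.

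Of the polymerase and primase genes, 3 of 9 genes were higher in RNA and 5 in footprints after knockout, with median log2 fold changes of 0.59 and 0.73, and 0 and 4 in WT-shARF, with medians of 0.41 and 0.49. Pola1 is the catalytic subunit of the polymerase that starts each Okazaki fragment, and Pole and Pole2 belong to the leading strand polymerase. Pola1 RNA was at 45.6 and 27.4 CPM in WT-shSCR, 54.1 and 47.8 CPM in WT-shARF and 60.8 and 88.2 CPM in Arf-/--shSCR MEFs. Pola1 footprints were at 46.4 and 33.7 CPM, 62.5 and 72.4 CPM, and 93.4 and 76.2 CPM in that order. Pola1 (chromosome X, 93304767 to 93632155, minus strand) rose in both assays after knockout, by 0.98 log2 units (SE 0.25, adjusted p = 0.0221, edgeR) in RNA and 1.04 log2 units (SE 0.18, adjusted p = 8.41e-05, edgeR) in footprints, and in WT-shARF footprints by 0.74. Pole2 RNA was at 10.2 and 14.7 CPM in WT-shSCR, 21.2 and 22.8 CPM in WT-shARF and 30.9 and 29.8 CPM in Arf-/--shSCR MEFs. Pole2 footprints were at 10.4 and 19.8 CPM, 11.4 and 22.7 CPM, and 28.9 and 18.7 CPM in that order. Pole2 RNA had the largest change of the 46 genes, 1.31 log2 units (SE 0.33, adjusted p = 0.0185, edgeR), from 23 to 27 reads in WT-shSCR, while its footprints overlapped between groups (0.64, adjusted p = 0.191, edgeR). Pole, the catalytic subunit, passed in both assays after knockout, with 0.75 in RNA and 0.81 in footprints. Pold1 and Pold2, subunits of the lagging strand polymerase, passed in footprints in both comparisons (Pold1 0.47 after knockout and 0.70 in WT-shARF, Pold2 0.80 and 0.75). Prim1, the catalytic primase subunit, passed in knockout footprints (0.65), and Pola2, Prim2 and Pold3 passed in neither assay.

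For lagging strand processing and single-strand binding, 0 of 5 genes were higher in RNA and 2 in footprints after knockout, with median log2 fold changes of 0.27 and 0.46, and 0 and 2 in WT-shARF, with medians of 0.05 and 0.39. Fen1, the flap endonuclease, and Lig1, the ligase that joins Okazaki fragments, passed in neither assay in either comparison. RPA1, RPA2 and RPA3 together form the single-strand binding protein. Rpa1 RNA was at 207 and 204 CPM in WT-shSCR, 220.3 and 209.6 CPM in WT-shARF and 293 and 207 CPM in Arf-/--shSCR MEFs. Rpa1 footprints were at 186 and 178 CPM, 224 and 179.6 CPM, and 252 and 238 CPM in that order. Rpa1 passed in footprints after knockout, 0.39 log2 units (SE 0.11, adjusted p = 0.0129, edgeR). Rpa2 RNA was at 24.9 and 29.3 CPM in WT-shSCR, 41.4 and 37.3 CPM in WT-shARF and 39.7 and 32.9 CPM in Arf-/--shSCR MEFs. Rpa2 footprints were at 26.3 and 27.9 CPM, 54.4 and 44.1 CPM, and 54.95 and 39.8 CPM in that order. Rpa2 footprints rose in both comparisons, by 0.77 log2 units (SE 0.22, adjusted p = 0.012, edgeR) after knockout and 0.84 log2 units (SE 0.23, adjusted p = 0.0136, edgeR) in WT-shARF. Rpa3 RNA was at 16.6 and 16.6 CPM in WT-shSCR, 14.9 and 16.6 CPM in WT-shARF and 14.6 and 16.4 CPM in Arf-/--shSCR MEFs. Rpa3 footprints were at 13.6 and 17.04 CPM, 31.6 and 33.7 CPM, and 29.8 and 23.8 CPM in that order. Rpa3 RNA stayed within 14.6 to 16.6 CPM in all 6 libraries, whereas its footprints in both other groups were above control, with a change of 1.09 log2 units (SE 0.29, adjusted p = 0.0123, edgeR) in WT-shARF, the largest of the 46 there, and of 0.78 after knockout, which did not pass (adjusted p = 0.061, edgeR).

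Nucleotide supply was the role in which all members passed in footprints. In it, 3 of 5 genes were higher in RNA and 5 in footprints after knockout, with median log2 fold changes of 0.74 and 0.81, and 3 and 5 in WT-shARF, with medians of 0.60 and 0.67. RRM1 and RRM2 are the large and small subunits of ribonucleotide reductase, which makes deoxyribonucleotides. Rrm1 RNA was at 351 and 361 CPM in WT-shSCR, 629.6 and 590.2 CPM in WT-shARF and 704 and 550.5 CPM in Arf-/--shSCR MEFs. Rrm1 footprints were at 415 and 457 CPM, 703 and 691 CPM, and 773 and 773 CPM in that order. Rrm1 (chromosome 7, 102441695 to 102469771, plus strand) rose by 0.79 log2 units (SE 0.09, adjusted p = 2.5e-08, edgeR) in knockout footprints and 0.67 log2 units (SE 0.08, adjusted p = 7.67e-07, edgeR) in WT-shARF footprints, the lowest adjusted p-values of the 46 genes in that assay. Rrm2 RNA was at 166 and 162 CPM in WT-shSCR, 282 and 304 CPM in WT-shARF and 291 and 262 CPM in Arf-/--shSCR MEFs. Rrm2 footprints were at 439 and 451 CPM, 623 and 646 CPM, and 699 and 724 CPM in that order. Rrm2 (chromosome 12, 24708241 to 24714146, plus strand) rose in RNA by 0.74 log2 units (SE 0.15, adjusted p = 0.00428, edgeR) after knockout and 0.82 log2 units (SE 0.14, adjusted p = 0.000224, edgeR) in WT-shARF, the largest RNA change in WT-shARF among members past the test, while Gins1, Rfc4 and Pole2 had larger ones that did not pass.

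Thymidylate synthase (Tyms) makes dTMP, thymidine kinase (Tk1) salvages thymidine, and dUTPase (Dut) keeps uracil out of DNA. Tyms RNA was at 48.2 and 48.4 CPM in WT-shSCR, 56.3 and 54.9 CPM in WT-shARF and 69.2 and 65.7 CPM in Arf-/--shSCR MEFs. Tyms footprints were at 56.5 and 50.7 CPM, 90.3 and 75.7 CPM, and 104 and 97.7 CPM in that order. Tyms footprints rose by 0.87 log2 units (SE 0.16, adjusted p = 0.00011, edgeR) after knockout, more than its RNA (0.47, adjusted p = 0.19, edgeR), a difference that did not pass the test described below. Tk1 RNA was at 63.3 and 59.3 CPM in WT-shSCR, 81.8 and 88.2 CPM in WT-shARF and 141 and 133 CPM in Arf-/--shSCR MEFs. Tk1 footprints were at 58.1 and 70.9 CPM, 113 and 116 CPM, and 135 and 136 CPM in that order. Tk1 (chromosome 11, 117815526 to 117826092, minus strand) rose in both assays after knockout, by 1.14 log2 units (SE 0.19, adjusted p = 0.000523, edgeR) in RNA and 1.04 log2 units (SE 0.15, adjusted p = 3.84e-06, edgeR) in footprints, and in WT-shARF by 0.82 log2 units (SE 0.16, adjusted p = 0.000499, edgeR) in footprints but 0.45 in RNA (adjusted p = 0.139, edgeR). Dut RNA was at 66.3 and 80.3 CPM in WT-shSCR, 116 and 107 CPM in WT-shARF and 79.7 and 91.2 CPM in Arf-/--shSCR MEFs. Dut footprints were at 71.1 and 56.9 CPM, 129 and 128 CPM, and 128 and 103 CPM in that order. Dut RNA was highest in WT-shARF, where it passed (0.60), and overlapped control after knockout (0.21, adjusted p = 0.578, edgeR). Its footprints rose in both, by 0.81 after knockout and 0.99 in WT-shARF.

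Among the chromatin assembly and DNA methylation genes, 3 of 4 genes were higher in RNA and 2 in footprints after knockout, with median log2 fold changes of 0.67 and 0.39, and 1 and 2 in WT-shARF, with medians of 0.39 and 0.36. UHRF1 brings the maintenance methyltransferase DNMT1 to newly copied DNA. Uhrf1 RNA was at 113 and 109 CPM in WT-shSCR, 165 and 174 CPM in WT-shARF and 182 and 239 CPM in Arf-/--shSCR MEFs. Uhrf1 footprints were at 144 and 131 CPM, 219.6 and 204 CPM, and 234 and 248 CPM in that order. Uhrf1 passed in all 4 tests, with its highest levels in the knockout, where RNA was higher by 0.91 log2 units (SE 0.17, adjusted p = 0.00222, edgeR). Dnmt1 passed in both assays after knockout (0.49 in RNA, 0.60 in footprints) and in footprints in WT-shARF (0.45). Of the chromatin assembly factor CAF-1, Chaf1a passed in RNA after knockout (0.68) but not in footprints, and Chaf1b passed in neither.

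Translation efficiency (TE) is the footprint change relative to the RNA change, tested over 8 libraries as an assay by condition interaction. It was called changed for 0 of the 46 genes after knockout, in edgeR and in DESeq2, and 2 genes reached an unadjusted p under 0.05. Such a p was reached by 773 of all 11314 genes tested. Of all genes tested, 0.0884% had higher and 0.106% lower TE. The members' log2 changes ran from -0.71 to 0.95 with a median of 0.04 and a median standard error of 0.30, and 25 were above 0. The 2 genes were Pola2, at 0.95 (unadjusted p = 0.0264, adjusted p = 0.634, edgeR), and Dut, at 0.57 (unadjusted p = 0.0428, adjusted p = 0.702, edgeR). For WT-shARF the TE count was likewise 0 of 46 genes by either tool, against 0.0354% of all genes higher and 0.0% lower. The changes ran from -0.62 to 1.18 with a median of 0.05, and Rpa3 (1.18, adjusted p = 0.57, edgeR) and Pold1 (0.50, adjusted p = 0.748, edgeR) reached an unadjusted p under 0.05. So did 751 of all 11289 genes tested. With a median standard error of 0.32 in that comparison, a TE change of a single gene as large as the median footprint change would not be told from 0.

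Set directly against WT-shARF, the Arf-/--shSCR MEFs had higher RNA of 1 of the 46 genes, Tk1, by 0.68 log2 units (SE 0.15, adjusted p = 0.0326, edgeR), with 1.38% of all genes tested higher. In footprints 1 gene was higher, Mcm4, by 0.32 log2 units (SE 0.10, adjusted p = 0.0495, edgeR), against 3.93% of all genes. None was lower in either assay (edgeR), against 1.19% of all genes in RNA and 4.3% in footprints, where 1 gene in RNA and 0 in footprints were lower at an unadjusted p under 0.05 and DESeq2 called 0. Tk1 footprints (0.21) and Mcm4 RNA (-0.07) did not pass, and neither call was kept without WT-shARF replicate 1 or 2 or with DESeq2. Without Arf-/--shSCR replicate 2 the Mcm4 call was lost too, and without Arf-/--shSCR replicate 1 the RNA count was 3. The median log2 difference of the 46 genes was 0.16 in RNA and 0.16 in footprints. In TE, 0 genes were called (edgeR and DESeq2), against 0.0172% higher and 0.0258% lower of all genes, and Mcm4 (0.38), Pold1 (-0.51) and Tk1 (-0.47) reached an unadjusted p under 0.05. So did 880 of all 11632 genes tested.

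The ratio of footprints to RNA differed widely between these genes. The log2 ratio of footprint to RNA CPM (0.5 CPM added to each) was set to 0 for the median of the 11314 genes tested and taken within the same group and replicate number, which need not be one culture. Over the 6 ratios of a gene, the mean ran from -1.56 for Fen1, at percentile 8.5 of all genes, to 1.38 for Rrm2, at percentile 95.3, and the median percentile of the 46 genes was 50.2. The ratio was above the median gene in all 6 pairs for 13 genes and below in all 6 for 11. Rrm2 (1.18 to 1.55), Gins1 (0.83 to 1.79) and Gmnn (0.61 to 1.36) were highest, and Fen1 (-1.88 to -1.20), Rfc2 (-1.14 to -0.67) and Pold2 (-1.23 to -0.52) lowest. No test was made on these ratios.

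**Figure D4:**
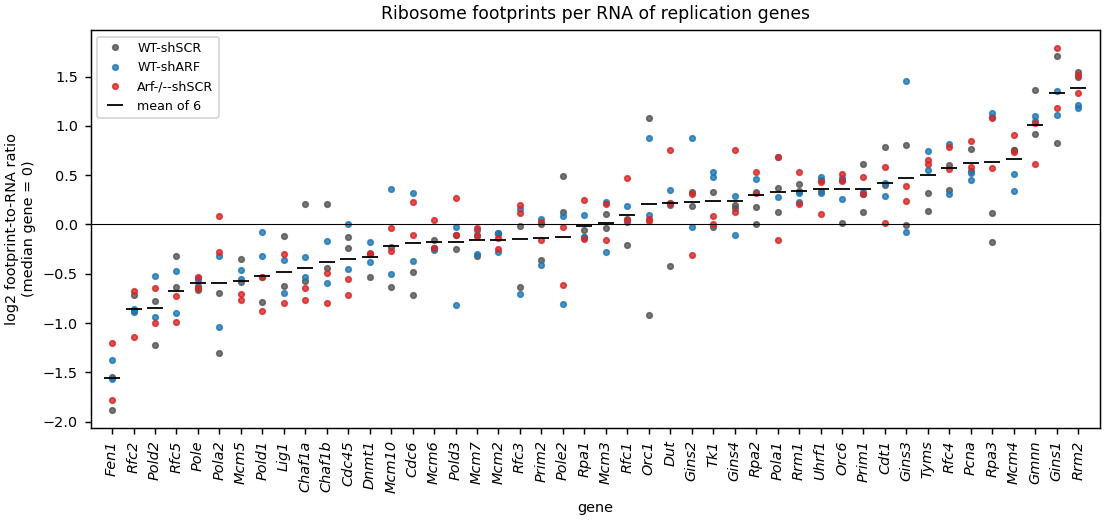
Log2 ratio of footprint to RNA CPM of each of the 46 genes, with the median gene at 0, in each replicate pair (points, coloured by group) and as the mean of 6 (black bars). The means run from -1.56 (Fen1) to 1.38 (Rrm2).

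Subunits of one complex were compared per kilobase of their longest coding sequence, as the mean over 6 libraries. The MCM2-7 subunits lay within 2.07 times of each other in RNA, from 56.7 (Mcm4) to 117.2 CPM per kb (Mcm7), and within 1.44 times in footprints, from 69.6 (Mcm2) to 100.5 CPM per kb (Mcm7). Mcm4 was the lowest in RNA in all 6 libraries. The RFC subunits spanned 4.8 times in RNA, from Rfc1 (12.9 CPM per kb) to Rfc2 (61.7), and 2.38 times in footprints, again from Rfc1 (13.4) to Rfc2 (31.9). In GINS, Gins3 had the lowest and Gins2 the highest mean in both assays, 7.66 times apart in RNA and 6.51 times in footprints. Rpa1 stood above Rpa2 and Rpa3 in all 6 libraries of each assay. The ribonucleotide reductase subunits were nearly equal in RNA, with Rrm1 at 223.5 and Rrm2 at 209.0 CPM per kb (ratio 1.07), but Rrm2 footprints were 1.91 times those of Rrm1 (510.2 against 267.3 CPM per kb), the higher in all 6 libraries, by 1.8 to 2.15 times. Footprint CPM per kb is a density of reads relative to the library, which depends on the amount of RNA as well as on the ribosomes per RNA. How far footprint recovery differs between genes was not tested, and protein was not measured here.

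**Figure D5:**
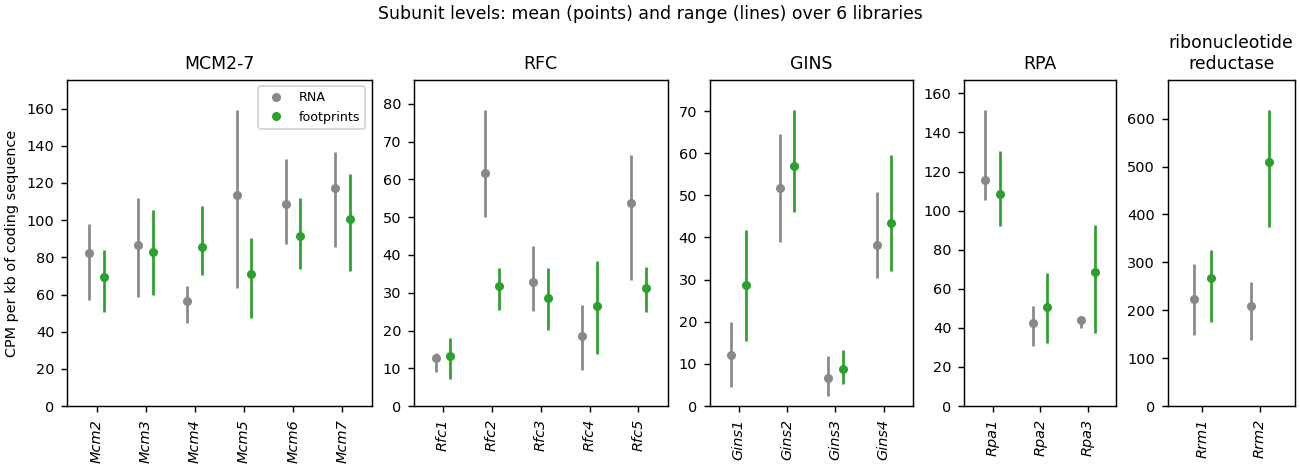
CPM per kilobase of longest coding sequence for the subunits of 5 complexes in RNA (grey) and footprints (green). Points are means and lines the range over the 6 libraries of an assay, and the Rrm2 footprint mean of 510.2 stands apart from Rrm1 at 267.3.

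A further 47 replication genes outside the 46, such as topoisomerases, checkpoint mediators and histone chaperones, were also counted. After knockout, 9 of 46 tested were higher and 0 lower in RNA, with a median of 0.54, and 19 of 47 higher and 0 lower in footprints, with a median of 0.57, where 3.94% and 9.57% of all genes were higher. In WT-shARF 8 of 46 and 10 of 47 were higher, against 3.11% and 5.63% of all genes, and 0 and 0 lower. Of the genes with 0 called lower by edgeR, 0 and 0 after knockout and 1 and 1 in WT-shARF were lower at an unadjusted p under 0.05. Pclaf, a PCNA-associated factor, rose in RNA by 1.43, Dbf4, the activator of the CDC7 kinase, by 1.42 and Top2a, the topoisomerase that untangles copied DNA, by 1.24 after knockout. Recql4 footprints rose by 1.55 after knockout, from only 19 and 7 reads in WT-shSCR. In WT-shARF, Dbf4 (1.37) and Mcm8 (1.27, from 25 and 10 reads in WT-shSCR) rose in RNA and Dctd (1.04), the dCMP deaminase, in footprints. In the direct comparison of knockout and WT-shARF, 4 of 47 were higher and 0 lower in footprints, against 3.93% and 4.3% of all genes. At an unadjusted p under 0.05, 2 of the 47 were lower. Among the 4 were the histone chaperone genes Nasp (0.59) and Ssrp1 (0.35).

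Of 21 regulators of S phase entry, 20 were tested in each comparison with WT-shSCR. After knockout, 1 was higher and 1 lower in RNA, near the shares of all genes (3.94% and 3.99%), and 3 were higher and 4 lower in footprints, where 9.57% and 8.95% of all genes were. In WT-shARF 3 were higher and 1 lower in RNA, against 3.11% and 4.17% of all genes, and 4 higher and 2 lower in footprints, against 5.63% and 5.5%. The 3 higher in RNA include Cdkn2a (3.91), which encodes ARF, the target of the hairpin. Cdkn1a RNA was at 119.4 and 134.5 CPM in WT-shSCR, 95.5 and 62.0 CPM in WT-shARF and 24.4 and 32.4 CPM in Arf-/--shSCR MEFs. It fell by 2.18 on the log2 scale after knockout (adjusted p = 3.78e-06, edgeR) and by 0.73 in WT-shARF (adjusted p = 0.0142, edgeR), and its footprints fell as well. Ccna2, the S phase cyclin, rose in footprints by 1.28 after knockout and 1.25 in WT-shARF. Rb1 footprints had log2 fold changes of -1.42 after knockout and -1.15 in WT-shARF, and passed in both. In RNA the 1 regulator called lower in each of these comparisons was Cdkn1a, so Rb1 RNA was not called lower in either. E2f1, chosen after its values were seen, fell in knockout footprints (-0.81, adjusted p = 0.0393, edgeR). Cdk2 footprints were higher in the knockout than in WT-shARF (0.66).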

How the data were processed

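Raw read counts per gene were deposited by the authors for 12 libraries, 6 of RNA and 6 of ribosome footprints, from 3 groups of MEFs with 2 replicates each. Per the methods, footprints were made with RNase T1 and RNA was depleted of rRNA and cut to the same size range. A yeast lysate had been added to the samples and was not used for scaling. Adapters were clipped, molecular identifiers moved to the read names (no removal of duplicates is stated), rRNA and other non-coding reads removed with Bowtie2, reads aligned to mm10 with TopHat, and those on coding sequence counted with htseq-count. The submitters' processing notes also name UMI-tools and cutadapt. Alignments that were not unique were left out of the counts, so genes with near-identical copies are under-counted. Rows of htseq-count that name no gene stayed out of library sizes and tests, and alignments that were not unique made up 79.22% to 81.38% of all those tallied in RNA libraries and 46.34% to 52.92% in footprint libraries.

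Counts were tested with edgeR 4.0.16 (R 4.3.3) with TMM factors, filterByExpr and quasi-likelihood F tests, on the 4 libraries of a comparison or, for TE, on 8 with the interaction of assay and condition. P-values were adjusted over all genes tested by Benjamini-Hochberg, with a threshold of 0.05. The main edgeR fits of RNA, footprints and TE were tested on simulated counts for the knockout comparison only. Alternatives were DESeq2 1.42.0, 3 other scalings, 2 filters, all groups in one fit, replicate blocks and leaving out each replicate. Replicates of a group differed by more than sampling noise (chi-square per gene 3.87 to 7.63) and were kept apart. The members and lists were chosen with earlier results of these data known. Values in every library are given for the 5 members past the test with the largest changes in each comparison of RNA or footprints and for 18 well known members. Other replication genes and S phase regulators are named from the 3 past the test with the largest changes in each direction of a comparison. Coordinates and coding lengths are from GENCODE M21 (GRCm38) and promoters from RefSeq.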

Additional observations from a re-analysis of the deposited data

How the results depend on the processing

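The direction of the 73 changes of members past the test did not reverse under any alternative set at the outset: of 876 repeats, 667 stayed past the threshold and 209 kept the direction but not the threshold. With DESeq2, 43 of the 73 changes stayed past the threshold and 30 did not. The shares of all genes called by DESeq2 are not set beside its counts, here or above. The genes DESeq2 called higher were 8 in RNA after knockout (16 in edgeR), 4 in RNA (9) and 11 in footprints (19) for WT-shARF, and 0 in either assay for knockout against WT-shARF (1 each). The 1 footprint call of that last comparison was also lost (0) with RLE factors, upper quartile factors, TMM without ribosomal protein genes and all groups in one fit. The cause was not tested. When each replicate was left out in turn, the counts ranged from 1 to 12 (RNA) and 0 to 20 (footprints) after knockout, 2 to 8 and 9 to 18 for WT-shARF, and 0 to 3 and 0 to 1 for knockout against WT-shARF, and from 0 to 0 for TE. In those fits a group is left with 1 library, which is assumed to vary like the other groups. For TE 0 members were called under every alternative run. Depth limits the genes with few reads, such as Gins1 and Gins3, and counts cover reads, not molecules.

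Replicate numbers were shared by the groups, but deviations from the group means of same-numbered libraries of an assay correlated at -0.081 to 0.044 over genes with 10 or more counts and at -0.14 to 0.056 with 30 or more. Between RNA and footprints of the same group and number, they correlated at 0.027 to 0.052 and 0.042 to 0.084. The samples were therefore not treated as paired, although weak correlations cannot show that they were unpaired. With a replicate block, 12 members were called in RNA and 27 in footprints after knockout, 11 and 19 for WT-shARF, and 0 and 1 for knockout against WT-shARF. A crossed pairing, chosen after seeing the data, called 25 in RNA after knockout and 2 in RNA for knockout against WT-shARF. The shares of all genes called in these fits are not given. The counts therefore show only how far the calls depend on the pairing.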
